A study of Homo sapiens with 2 samples.

Results

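The genes described here handle calcium at the endoplasmic reticulum (ER) and at its contacts with mitochondria. They were chosen by name, with earlier results of these data known: ATP2A2, ATP2A3, ITPR1, ITPR2, ITPR3, STIM1, STIM2, VDAC1 and VAPB, 9 of the 25277 gene rows in the deposited tables. Each of them had exactly 1 row. mRNA was sequenced from HEK293 cells, a human embryonic kidney cell line, at passage 15 to 20. One sample was of wild-type genotype (WT) and 1 lacked the ER stress kinase PERK, which is encoded by EIF2AK3 (PERK-KO). Both were cultured for 12 h in OXPHOS medium, a glucose-free medium in which cells depend on oxidative phosphorylation for ATP. The study made its PERK-KO cells with CRISPR/Cas9 and grew them from single cells, so that the knockout sample may stand for a single clone. Which guide or clone was sequenced, and whether the WT cells had been cloned, was not given in the sources used here.

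The ER is the main calcium store of the cell. Sarco/endoplasmic reticulum calcium ATPases (SERCA, the ATP2A genes) pump calcium into its lumen, and inositol 1,4,5-trisphosphate (IP3) receptors (the ITPR genes) release it when hormones or growth factors raise IP3. STIM proteins sense the luminal calcium level and, when the store is empty, open ORAI channels in the plasma membrane, a process named store-operated calcium entry. Where the ER touches a mitochondrion, calcium leaving the IP3 receptors passes the outer mitochondrial membrane through VDAC channels and enters the matrix through the mitochondrial calcium uniporter, where it stimulates respiration. VAPB is an ER membrane protein that holds such contacts by binding partners on other organelles.

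Values are FPKM, fragments scaled by transcript length and by the mapped fragments of the sample, so that levels of different genes can be set side by side per length. Each value was deposited with a lower and an upper confidence limit, given here in parentheses. These limits carry the counting error of a single library, and the spread between cultures is unknown because no genotype had a replicate. No difference between the genotypes could be tested, and all ratios below compare these 2 samples. The ratio is PERK-KO over WT, and its limits are the most extreme ratios that the limits of both samples allow. A gene was counted as higher or lower in PERK-KO cells when its FPKM was at least 1 in at least 1 sample, its ratio was past 1.5-fold and the limits of both samples did not overlap. By this rule 7.90% of the 14594 genes above the FPKM limit were higher and 5.39% were lower, and the limits of 44.8% did not overlap, whatever the size of the ratio. The cells were measured in bulk, so more RNA per cell and more cells carrying the RNA cannot be told apart.

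The targeted gene, EIF2AK3, was at 5.61 FPKM (5.11 to 6.12) in the WT sample and 3.89 (3.44 to 4.34) in PERK-KO cells, 1.44-fold lower. A frameshift made by Cas9 can leave the transcript in place, so its level alone is a limited check of the genotype. IRS4, an insulin receptor substrate known for its high level in HEK293 cells, was at 27.1 FPKM (25.8 to 28.4) in PERK-KO cells but at only 0.121 (0.0404 to 0.202) in the sample labelled wild-type. The defining marker of the line was therefore nearly absent from the WT sample, and the part this plays in the differences below was not tested. Of 7 markers of blood, endothelium, muscle, liver and fibroblasts, 3 reached an FPKM of 1 (ACTA1, COL1A1 and PECAM1), CD3E and ALB were listed at 0 in both samples, and none had limits that lay apart. The summed level of the 7 markers was 21.0 FPKM in the WT sample and 19.6 in PERK-KO cells.

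The fold changes also moved with transcript length over the whole table. Among genes with a transcript under 1000 bases the median log2 fold change was -0.38, and it was -0.17 from 1000 to 2000 bases, 0.02 from 2000 to 4000, 0.20 from 4000 to 8000 and 0.34 above 8000. Of the 1074 genes above 8000 bases, 25.7% were higher in PERK-KO cells and 1.68% were lower. ATP2A2 and the 3 ITPR genes all lie in this longest class. Their values are therefore also given below relative to the running median of genes of similar length, and the part that length plays in them was not tested. Ratios and shares that set genes of unlike length side by side were not adjusted for this trend.

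Short stretches of 3 promoters are shown because they hold the motifs searched for, namely those of ER stress factors and CCGGAAG, the motif of the factor GABP that the study examined. RefSeq promoter windows, from 250 bases before to 50 bases after an annotated start (GRCh38.p14), were at hand for 7 of the 9 genes and were placed on GRCh37 by exact match. Capitals mark the motif and the strand is that of the gene.
ATP2A2, chr12:110718984-110719013 (GRCh37, + strand): ctcggCCAATGAGCGGCGTCCACAtgccgc
VDAC1, chr5:133340575-133340604 (GRCh37, - strand): ggcagcggggcCCGGAAGggtaagaacgcg
VAPB, chr20:56964035-56964174 (GRCh37, + strand): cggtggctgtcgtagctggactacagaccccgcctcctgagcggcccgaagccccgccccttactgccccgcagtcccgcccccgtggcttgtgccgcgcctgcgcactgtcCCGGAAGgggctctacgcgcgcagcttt

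The ATP2A2 stretch resembles the ER stress response element, which is CCAAT, 9 bases of any kind and CCACG. It differs from it by G19A, with positions counted from 1 at the first C of CCAAT and the base of the element given first. The motif lies 63 to 45 bases upstream of a RefSeq start of ATP2A2. No window of the 7 genes held the exact element, which was found in the windows of 0.0916% of genes with a window. With any base at the last position, a form chosen after this stretch had been seen, it was found in 0.381% of genes and in ATP2A2 alone among the 7 searched, since ATP2A3 and ITPR2 had no window. The motifs ATTGG, 1 base, CCACG, as well as TGACGTGG and TGATG, 1 base, AAT, were in no window of the 7 genes, against 0.0696%, 0.927% and 1.22% of genes in all. CCGGAAG was found in VDAC1, 134 to 128 bases upstream of one of its starts, and in VAPB, 138 to 132 bases upstream of its start. It occurs in 12.2% of genes with a window, counted on both strands. That VDAC1 start lies 365 bases inside the deposited VDAC1 locus, so this stretch of VDAC1 is within the locus. A match is a description of these letters and says nothing of whether a factor binds there.

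ATP2A2, which encodes the widely expressed pump SERCA2, stood out among the 9 genes. It lies on chromosome 12 from 110719032 to 110788897 (GRCh37, + strand), with 20 exons and 8295 bases in its canonical transcript. Its level was 44.4 FPKM (42.6 to 46.3) in the WT sample and 102 FPKM (98.5 to 106) in PERK-KO cells. The limits were far apart, and the ratio was 2.30 (2.13 to 2.49), a log2 fold change of 1.20 that placed ATP2A2 at percentile 98.3 of the genes above the FPKM limit. If the limits lie 2 standard deviations from the value, the levels rest on about 2320 and 3004 fragments, the largest number among the 9 genes in PERK-KO cells. Genes of similar transcript length had a running median log2 fold change of 0.34, and relative to it the log2 fold change of ATP2A2 was 0.86.

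ATP2A3 encodes SERCA3, a pump of lower calcium affinity best known from blood and epithelial cells. It lies on chromosome 17 from 3827163 to 3867758 (- strand), and its level was low, at 2.33 FPKM (1.99 to 2.67) in the WT sample and 1.64 (1.34 to 1.94) in PERK-KO cells. It was the only one of the 9 whose limits lay apart with the lower value in PERK-KO cells. The difference was 1.42-fold, a log2 fold change of -0.51, which did not pass the 1.5-fold limit, and relative to genes of similar length the log2 fold change was -0.71. The remaining pump, ATP2A1 (SERCA1, the pump of fast skeletal muscle), was under the FPKM limit at 0.511 and 0.407 FPKM with overlapping limits.

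The makeup of the SERCA family therefore differed between the samples. ATP2A2 took 94.0% (92.7 to 95.2) of the summed SERCA level in the WT sample and 98.0% (97.5 to 98.5) in PERK-KO cells. The share of ATP2A3 was 4.93% (4.07 to 5.86) in the WT sample and 1.57% (1.24 to 1.93) in PERK-KO cells. The level of ATP2A2 was 19.1 times that of ATP2A3 (15.9 to 23.2) in the WT sample and 62.4 times (50.8 to 79.2) in PERK-KO cells. The summed SERCA level was 47.3 FPKM in the WT sample and 104 in PERK-KO cells, a ratio of 2.21 (2.02 to 2.42).

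**Figure D1:**
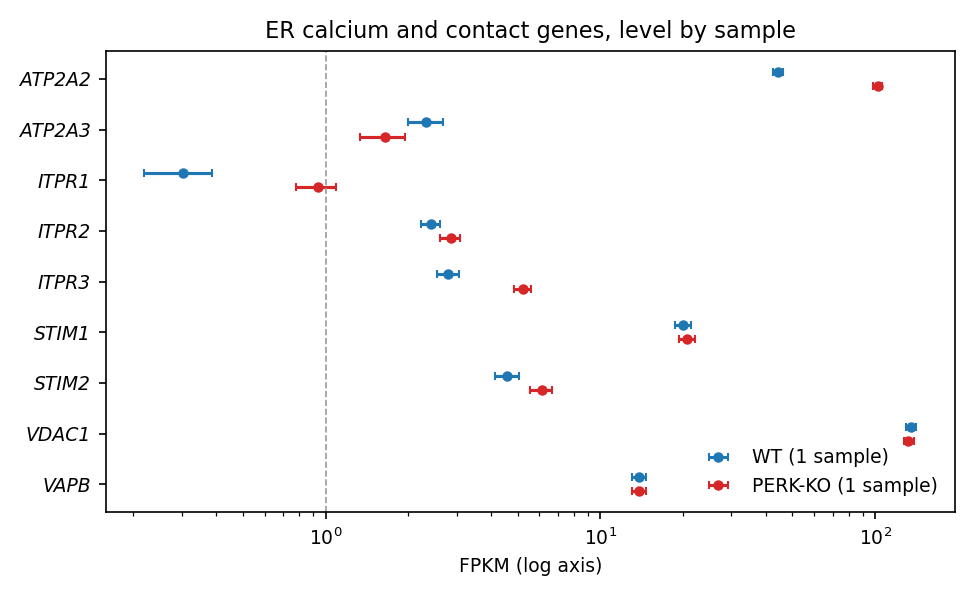
FPKM of the 9 genes in WT and PERK-KO HEK293 cells on a log axis, 1 sample per genotype, with bars for the deposited confidence limits. ATP2A2 is at 44.4 in WT and 102 in PERK-KO cells and ITPR3 at 2.80 and 5.24, whereas the points of STIM1, VDAC1 and VAPB lie on top of each other.

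All 3 IP3 receptors had higher values in PERK-KO cells, but only ITPR3 was counted as higher. The 3 receptors share their architecture, assemble as tetramers and differ in their sensitivity to IP3 and calcium. ITPR3, the receptor often found at mitochondrial contacts, lies on chromosome 6 from 33589156 to 33664348 (+ strand) and has a transcript of 9079 bases. It was at 2.80 FPKM (2.55 to 3.05) in the WT sample and 5.24 (4.87 to 5.61) in PERK-KO cells. The ratio of ITPR3 was 1.87 (1.60 to 2.2), a log2 fold change of 0.90 at percentile 96.5. Relative to genes of similar length, the log2 fold change of ITPR3 was 0.59, only just past 1.5-fold.

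ITPR2, the receptor most sensitive to IP3, lies on chromosome 12 from 26488285 to 26986131 (- strand), with 12564 bases of transcript. It was at 2.42 FPKM (2.22 to 2.62) in the WT sample and 2.85 (2.62 to 3.08) in PERK-KO cells. The limits of ITPR2 met and lay apart only by less than the rounding of these values. They overlapped after the PERK-KO values had been rescaled to set the median log2 fold change over all genes to 0. Its log2 fold change of 0.24 was below the running median of 0.38 for its length, so that relative to genes of similar length it was -0.14.

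ITPR1, the receptor that dominates in cerebellar neurons, lies on chromosome 3 from 4535032 to 4889524 (+ strand) and was below an FPKM of 1 in both samples. Its level was 0.302 FPKM (0.219 to 0.385) in the WT sample and 0.935 (0.782 to 1.09) in PERK-KO cells, with limits that did not overlap. The ratio was 3.1, with limits of 2.03 to 4.98, and it rests on about 52.9 and 148 fragments. Relative to genes of similar length, the log2 fold change of ITPR1 was 1.29. With a pseudocount of 1 the log2 fold change of ITPR1 was 0.57 instead of 1.63, and it was then below those of ATP2A2 (1.18) and ITPR3 (0.72). Because of the FPKM limit, ITPR1 is in none of the counts. A non-coding gene inside its locus, EGOT, was listed at 0 in both samples.

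The sum of the 3 receptors was 5.52 FPKM in the WT sample and 9.03 in PERK-KO cells, a ratio of 1.63 (1.37 to 1.96). ITPR3 and ITPR2 took similar shares of this sum in WT cells, 50.7% (45.8 to 55.6) and 43.9% (39.3 to 48.7), with overlapping limits. In PERK-KO cells the shares lay apart, at 58.0% (53.9 to 62.2) for ITPR3 and 31.6% (28.1 to 35.3) for ITPR2. ITPR1 took 5.46% of the sum in the WT sample and 10.4% in PERK-KO cells. The summed mRNA level of the SERCA genes exceeded that of the IP3 receptor genes in both samples. It was 8.56 times (7.41 to 9.95) the summed IP3 receptor level in the WT sample and 11.6 times (10.2 to 13.1) in PERK-KO cells. Ryanodine receptors were not part of this sum, and protein levels were not part of these data.

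**Figure D2:**
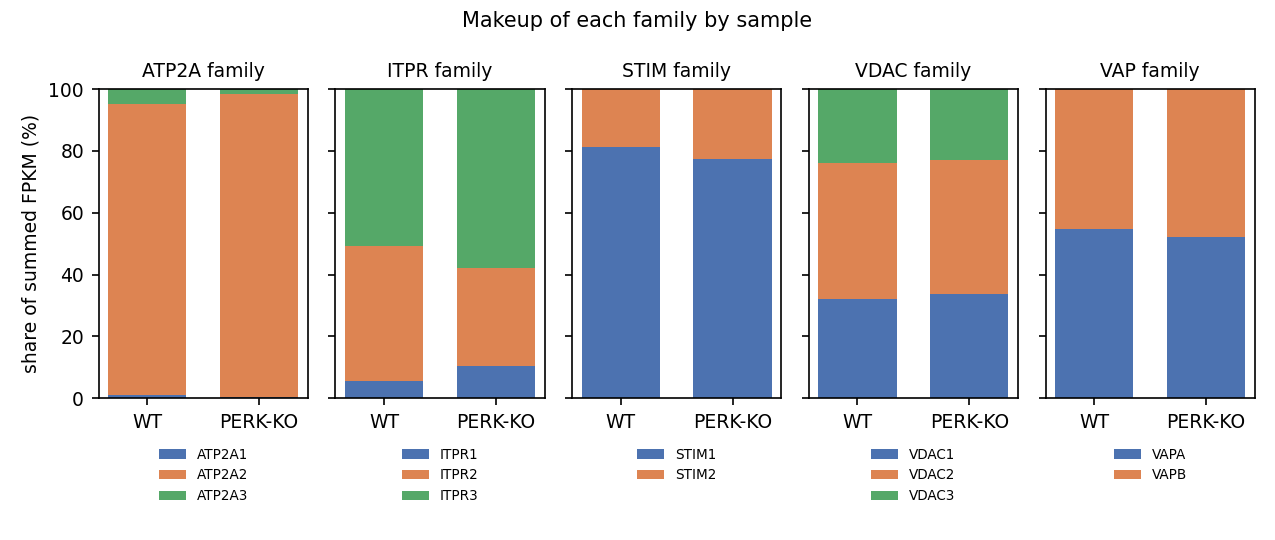
Share in percent of the summed FPKM of each gene family that each paralog takes in WT and PERK-KO cells, 1 sample per genotype. ITPR2 is at 43.9% of the IP3 receptor sum in WT and at 31.6% in PERK-KO cells, and VDAC1 is at 32.2% and 33.7% of the VDAC sum.

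Of the calcium sensors, neither was counted as higher or lower. STIM1, the main activator of store-operated entry, lies on chromosome 11 from 3876933 to 4114440 (+ strand) and was at 20.0 FPKM (18.7 to 21.3) in the WT sample and 20.7 (19.3 to 22.1) in PERK-KO cells. Its limits overlapped, and the ratio was 1.04 (0.908 to 1.19). STIM2, which responds to smaller losses of stored calcium, lies on chromosome 4 from 26862313 to 27027003 (+ strand) and was at 4.58 FPKM (4.12 to 5.05) in the WT sample and 6.12 (5.54 to 6.69) in PERK-KO cells. The limits of STIM2 lay apart, at a ratio of 1.34 (1.10 to 1.63) that did not reach 1.5-fold. STIM1 took 81.3% (78.7 to 83.8) of the STIM sum in the WT sample and 77.2% (74.3 to 80.0) in PERK-KO cells, and these limits overlapped.

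VDAC1 and VAPB, which act at the mitochondrial contact, had nearly the same values in both genotypes. VDAC1, the most studied channel of the outer mitochondrial membrane, lies on chromosome 5 from 133307566 to 133340824 (- strand) and was at 135 FPKM (130 to 141) in the WT sample and 132 (127 to 138) in PERK-KO cells. Its ratio was 0.978, with limits of 0.901 to 1.06, so a difference of 1.5-fold lies outside what counting error allows between these 2 samples. VAPB lies on chromosome 20 from 56964175 to 57026156 (+ strand) and was at 13.8 FPKM (13 to 14.7) in both samples, with a ratio of 0.999 (0.885 to 1.13). The VAPB transcript has 7829 bases, and genes of similar length had a running median log2 fold change of 0.31. Relative to genes of similar length, the log2 fold change was -0.31 for VAPB and 0.07 for VDAC1.

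The paralogs of these genes were close to them. VDAC2 was at 185 FPKM in the WT sample and 170 in PERK-KO cells, VDAC3 at 100 and 90.2, and VAPA, which shares the partners of VAPB, at 16.7 and 15.0. None of the 3 was counted as higher or lower. The VDAC sum had a ratio of 0.933 (0.851 to 1.02) and the VAP sum one of 0.947 (0.844 to 1.06). The level of VDAC1 was 3.05 times that of ATP2A2 in the WT sample and 1.30 times in PERK-KO cells, which reflects the value of ATP2A2.

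Within each sample the order of the levels was the same: VDAC1, ATP2A2, STIM1, VAPB, STIM2, ITPR3, ITPR2, ATP2A3 and ITPR1. In WT cells the neighbours ITPR3 and ITPR2, and ITPR2 and ATP2A3, had overlapping limits and do not differ beyond them. In PERK-KO cells STIM2 and ITPR3 were the only neighbours with overlapping limits, and the step from ATP2A2 to STIM1 widened from 2.22-fold in WT to 4.93-fold. These steps were not adjusted for transcript length, which is 8295 bases for ATP2A2 and 4168 for STIM1. From the highest to the lowest, the levels spanned from 135 to 0.302 FPKM in the WT sample and from 132 to 0.935 in PERK-KO cells.

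Counted together, 8 of the 9 genes were above the FPKM limit, 2 of these were higher (25%, against 7.90% of all genes) and 0 were lower (against 5.39%). The limits of 5 did not overlap (62.5%, against 44.8%), with the higher value in PERK-KO cells for 4 and in WT cells for ATP2A3. These counts rest on few genes, of which ATP2A2 and ITPR3 belong to the length class where 25.7% were higher. The median log2 fold change of the 8 genes was 0.14, beside 0.04 over all genes above the limit, whose interquartile range was -0.23 to 0.31.

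**Figure D3:**
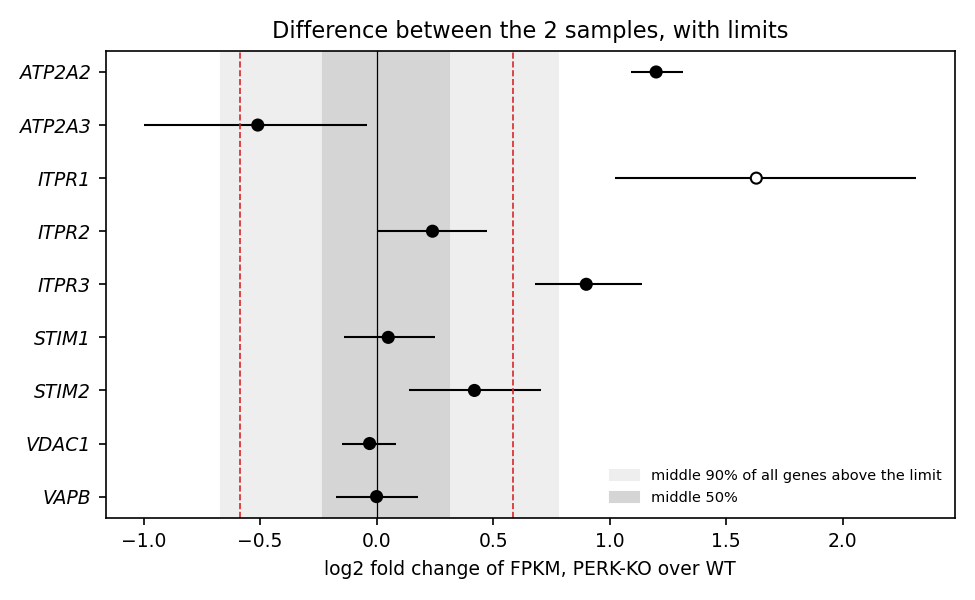
Log2 fold change (PERK-KO over WT) of the 9 genes, with bars for the most extreme ratios that the deposited limits allow, and shaded bands for the spread of all genes above the FPKM limit. ATP2A2 (1.20), ITPR3 (0.90) and ITPR1 (1.63, below an FPKM of 1 in both samples) are to the right and ATP2A3 (-0.51) to the left, and STIM1, VDAC1 and VAPB are near 0.

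**Figure D4:**
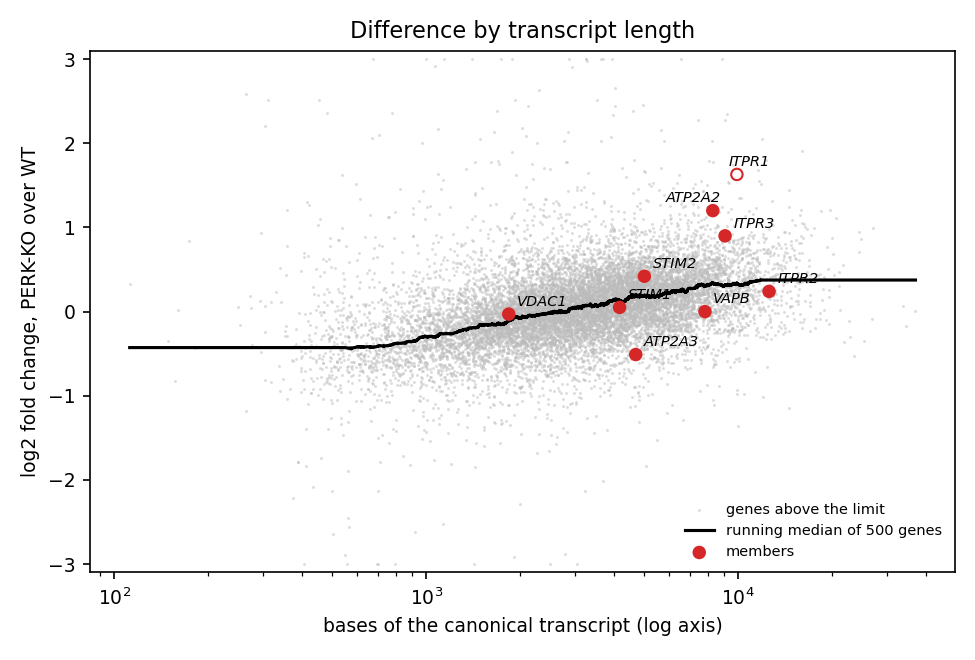
Log2 fold change (PERK-KO over WT) against the length of the canonical transcript in bases, on a log axis, with genes above the FPKM limit as small points, values beyond 3 in size drawn at the edge, the running median as a line and the 9 genes named (open circle for ITPR1, which was below the limit). The line climbs with length, and ATP2A2 and ITPR3 lie above it by 0.86 and 0.59 and ATP2A3 below it by 0.71.

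The genes that work with these 9 were taken from 10 lists by role. Beyond the 9 genes the lists held 93 others, of which 77 were above the FPKM limit. Of these, 9 were higher in PERK-KO cells (11.7%, against 7.90% of all genes), 3 were lower (3.90%, against 5.39%) and 65 were neither. Their median log2 fold change was 0.21. Relative to genes of similar length the median was 0.10, and 5 genes were higher and 1 was lower. The share of all genes called relative to length was not set beside these counts. The genes of the lists too were chosen with earlier results known. With 1.5-fold as the limit, CALR at a log2 fold change of 0.61 and FUNDC1 at -0.59 were just past it, and MCUR1 (listed as CCDC90A, 0.57) and FIS1 (-0.56) were just short of it.

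Around the pumps and release channels, ITPRIPL1 was the only call beyond ATP2A2 and ITPR3, which were counted above. Among 3 genes of the SERCA list above the limit, the only call was ATP2A2, and the other gene of the list, TMX1, a thiol oxidoreductase that acts on SERCA2, was at 14.6 and 16.4 FPKM. Of the ryanodine receptors, the release channels of muscle and neurons, RYR2 alone passed the limit, and only through PERK-KO cells. It was at 0.931 FPKM (0.824 to 1.04) in WT and 1.29 (1.16 to 1.43) in PERK-KO cells. Among the 3 receptor genes above the limit, ITPR3 was the only call. In this list and in the SERCA list a single call is 33.3%, against 7.90% of all genes. Among 10 partners of IP3 receptors, ITPRIPL1, a gene related by sequence to the IP3 receptor interacting protein, was higher (5.28 and 8.68 FPKM) and none was lower. ERP44, a luminal protein that binds ITPR1, was at 8.12 and 11.6 FPKM, 1.43-fold apart with limits that did not overlap.

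Among 10 genes of store-operated entry, 1 was higher and 1 lower. The higher one was CRACR2A (listed as EFCAB4B), a cytosolic regulator of ORAI1. It was at 0.974 FPKM (0.690 to 1.26) in the WT sample and 2.12 (1.67 to 2.56) in PERK-KO cells. It passed the FPKM limit only through PERK-KO cells, where it is high, and rests on about 47.1 and 90.3 fragments. The lower one was ORAI3, a channel subunit, at 5.26 FPKM (4.53 to 6.0) in the WT sample and 3.0 (2.41 to 3.59) in PERK-KO cells. ORAI1, the main pore subunit, was at 13.6 and 17.9 FPKM, and ORAI2 at 13.5 and 12.1. The ORAI sum was 1.31 times (1.12 to 1.54) the STIM sum in the WT sample and 1.23 times (1.04 to 1.44) in PERK-KO cells, with overlapping limits.

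The list of luminal calcium-binding proteins of the secretory pathway, which also holds membrane-bound ones, had the most abundant of the genes counted as higher or lower. Of 12 luminal genes above the limit, CALR, CANX and SEL1L were higher and SELENOM (listed as SELM) was lower. CALR encodes calreticulin, the main calcium buffer and a chaperone of the ER, and was at 688 FPKM in the WT sample and 1050 in PERK-KO cells. CANX, its membrane-bound relative calnexin, was at 164 and 256 FPKM. SEL1L was at 8.62 and 20.5 FPKM and SELENOM at 348 and 214. SEL1L is an adaptor for the degradation of misfolded ER proteins and SELENOM a selenoprotein with a thioredoxin-like fold, so neither is a calcium buffer. Relative to genes of similar length, CALR and SEL1L were still past 1.5-fold, at log2 fold changes of 0.69 and 0.94, whereas CANX (0.46) and SELENOM (listed as SELM, -0.28) were not. Among 8 calcium leak proteins of the ER none was higher or lower, which in so few genes is near the shares of all genes. The most abundant, TMBIM6, was at 336 FPKM in the WT sample and 287 in PERK-KO cells.

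On the mitochondrial side, no VDAC gene and none of 8 genes for mitochondrial calcium uptake and exchange was higher or lower. Among so few genes this is near the shares of all genes (7.90% higher and 5.39% lower). MCU, the pore of the uniporter, was at 12.7 and 14.6 FPKM. The most abundant gene of this list was SMDT1 (listed as C22orf32), which links the pore to its calcium-sensing subunits, at 35.2 and 28.8 FPKM. Of 24 genes of ER-mitochondria contacts, VAPB among them, 3 were higher (12.5%, against 7.90% of all genes). In this list 1 was lower (4.17%, against 5.39%). PDZD8, an ER lipid-transfer protein at these contacts, was at 9.86 FPKM in the WT sample and 17.8 in PERK-KO cells. The lipid-transfer proteins VPS13A and VPS13D were at 3.66 and 5.70 FPKM and at 1.62 and 3.26 FPKM. FUNDC1, a mitophagy receptor of the outer mitochondrial membrane that also binds ITPR2, was lower, at 49.2 and 32.8 FPKM. The transcripts of PDZD8, VPS13A and VPS13D are 9672, 15227 and 16355 bases long, in the class where 25.7% of genes were higher. Relative to genes of similar length, VPS13D was still past 1.5-fold at a log2 fold change of 0.63, whereas PDZD8 (0.53), VPS13A (0.26) and FUNDC1 (-0.28) were not.

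**Figure D5:**
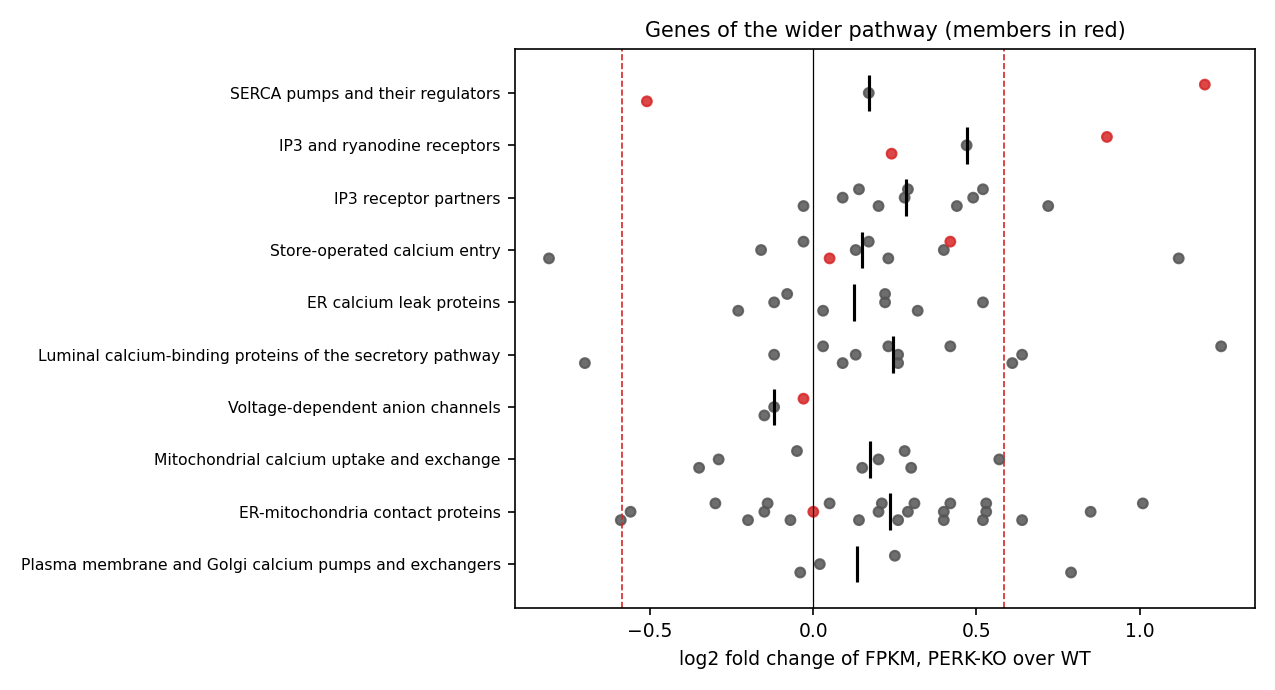
Log2 fold change (PERK-KO over WT) of each gene above the FPKM limit in the 10 lists, 1 point per gene and 1 row per list, with the list's median as a bar. Most genes lie near 0, and SEL1L (1.25), ATP2A2 (1.20) and EFCAB4B (1.12) are at the right end and ORAI3 (-0.81) at the left end. EFCAB4B was below an FPKM of 1 in the WT sample.

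The genes of the lists whose log2 fold change was nearest to that of ATP2A2 were SEL1L, EFCAB4B and VPS13D, at distances of 0.05, 0.08 and 0.19. For ITPR3 they were PDZD8, VPS13D and ATP2B4, at 0.05, 0.10 and 0.11. For ATP2A3 they were FIS1, FUNDC1 and EFHA1, at 0.05, 0.08 and 0.15. This likeness is over 2 samples, that is, a single difference per gene. EFCAB4B was below an FPKM of 1 in the WT sample.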

How the data were processed

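The authors purified polyadenylated mRNA, mapped the reads to hg19 (GRCh37) with TopHat2 2.0.13 and computed FPKM with Cufflinks 2.2.1, per the submitters' processing notes and the study's methods. They deposited for each sample the FPKM of every gene and its confidence limits, whose confidence level is not given in the sources used here. The tables hold 25277 rows, 1305 of them on alternate or unplaced contigs. Read numbers and strandedness were not in the files, so the depth is unknown beyond these limits, and reads of overlapping genes cannot be told apart by strand.

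Ratios were computed without a pseudocount for genes that reached an FPKM of 1 in either sample, with Python 3.11.15, numpy 2.4.6, pandas 2.3.3 and matplotlib 3.10.9. Transcript lengths came from canonical GENCODE 44 transcripts lifted to GRCh37, matched by symbol and position for 92.4% of these genes, with a running median over 500 genes. Named genes were the 9 genes, their paralogs, EIF2AK3, the genes of each list counted as higher or lower or, failing these, the most abundant one, and the 3 nearest in log2 fold change. IRS4 and the other cell markers were a list of their own. TMX1, RYR2, EGOT, ERP44, ORAI1, ORAI2, MCU and CCDC90A were named after their values had been seen. The genes and lists were chosen with earlier results of these data known. The alternatives were other FPKM limits, fold limits, pseudocounts and scalings. Only the rule for counting a gene as higher or lower was checked on simulated counts, with changes well past 1.5-fold and no spread between cultures.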

Additional observations from a re-analysis of the deposited data

How the results depend on the processing

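No paired analysis was possible because each genotype had 1 sample, which also leaves no replicate to omit. ATP2A2 and ITPR3 were both counted as higher with an FPKM limit of 5 or none, with pseudocounts of 0.1 and 1 and with both rescalings. With a 2-fold limit, 1 of the 9 genes (ATP2A2) and 3 genes of the lists (all higher) were counted, against 2 and 12 at 1.5-fold. After the running median over transcript length had been subtracted, an alternative chosen after seeing the data, the median log2 fold change of the 8 genes was 0.0025 instead of 0.14, that of ITPR2 turned to -0.14, ATP2A3 joined the calls as lower, and 6 genes of the lists remained past the limit (CALR, EFCAB4B, ITPRIPL1, SEL1L and VPS13D higher, ORAI3 lower). Without an FPKM limit ITPR1 was a further call, for 3 in all. Among the calls of the lists, EFCAB4B passed the FPKM limit only through PERK-KO cells. Rescaling the PERK-KO values by 0.973, which sets the median log2 fold change to 0, left 4 genes with limits apart instead of 5. With this rescaling and with that to the 75th percentile, 8 genes of the lists were higher and 4 were lower, instead of 9 and 3. No share of all genes was set beside the counts under these alternatives. They can therefore not be read as more or fewer than among other genes. The limits carry counting error only, so the variation between cultures or clones cannot be judged at any depth.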

Other observations

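Calcium also leaves the cytosol through pumps of the plasma membrane and the Golgi apparatus. Of 4 such genes above the FPKM limit, ATP2B4, which encodes the plasma membrane pump PMCA4, was higher in PERK-KO cells, at 5.93 FPKM (5.46 to 6.39) against 3.43 (3.12 to 3.73) in WT cells. Relative to genes of similar transcript length its log2 fold change was 0.47, short of 1.5-fold. ATP2B1, the housekeeping plasma membrane pump, was at 13.8 FPKM in the WT sample and 13.5 in PERK-KO cells, with overlapping limits. ATP2C1, the calcium and manganese pump of the Golgi, was at 21.0 and 25 FPKM with limits apart at a ratio of 1.19 (1.07 to 1.33). TMEM165, a Golgi transporter, was at 33.0 and 33.4 FPKM.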
